A study of Homo sapiens with 15 samples.

Results

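Interferon-stimulated genes, the genes that cells switch on when interferon is sensed, were followed in human kidney epithelial cells grown on spider-silk membranes or on LN/PC membranes, with and without fibroblasts. The members were taken from a list of 43 gene symbols, and 41 of them had a row in the authors' table of 15790 genes. RSAD2 and CMPK2 were not analysed here. The epithelial cells were RPTEC/TERT1, immortalized proximal tubule cells of the human kidney, and the fibroblasts were fHDF/TERT166, an immortalized line of foreskin dermal fibroblasts, so each cell type is 1 line and the fibroblasts are not of kidney origin. The 5 groups had 3 libraries each: fibroblast monocultures, co-cultures of both lines on LN/FN-silk, epithelial monocultures on LN/FN-silk, co-cultures of both lines on LN/PC, and epithelial monocultures on LN/PC. They are called fibroblast monocultures, silk co-cultures, silk monocultures, LN/PC co-cultures and LN/PC monocultures below. All were collected 14 days after seeding at 140000 epithelial cells and 14000 fibroblasts per cm2, and per the labels' protocols each library pooled 3 to 8 membranes. The silk was scraped off its support while LN/PC was cut from a holder, so effects of the membrane and of the harvest cannot be told apart. Fibroblasts grew on the well bottom; they are basolateral in the protocol and monocultures in the titles. No interferon or virus is named in any label, so the levels are those of cultures without a stated stimulus. Whether the 3 replicates of a group came from separate cultures is not stated, so p-values measure the spread between these libraries, which may be technical.

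As background, type I and type III interferons bind receptors that activate the kinases JAK1 and TYK2. These phosphorylate STAT proteins, among them STAT2, which acts with IRF9 in the complex ISGF3, and ISGF3 binds interferon-stimulated response elements in the promoters of the genes listed here. Interferon-gamma acts through GAS elements. Many of these genes also have a basal level in cells that no interferon has reached, and that level rests partly on STAT2 and IRF9 that are not phosphorylated. In the kidney, tubular epithelium can express this program in inflammation and infection.

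The promoters of several members are shown first because the response element is where ISGF3 is known to bind. Windows of 250 bases before to 50 bases after an annotated start were taken from RefSeq (GRCh38.p14), and 33 of the 41 members had at least 1. IFIT2, OAS2, OASL, MX2, DHX58, IRF7, USP18 and TRIM22 had none. The core of the response element, GAAA and GAAA with any 2 bases between them, was searched on both strands, and 21 of the 33 members (63.6%) held at least 1 match, against 1195 of 27305 gene symbols with a window (4.38%). The letters TTCNNNGAA, the core of a GAS element, which reads the same on both strands, were found in 11 of the 33 members (33.3%) and in 9.38% of those gene symbols. Here a gene with several windows counted once, and the core was in 3.57% of the 35116 single windows. Matches of both kinds may overlap, and a match is a description of the letters and not a site at which binding was measured. In the stretches below, printed 5′ to 3′ on the strand of the gene, capitals mark this core or its reverse complement, and all stretches but the last lie before the annotated start. The first 8 belong to members whose RNA was lower in silk than in LN/PC monocultures.
IFI6, chr1:27672256-27672368, minus strand: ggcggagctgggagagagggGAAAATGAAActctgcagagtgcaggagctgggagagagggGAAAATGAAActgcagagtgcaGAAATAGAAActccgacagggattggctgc
IFI27, chr14:94110608-94110670, plus strand: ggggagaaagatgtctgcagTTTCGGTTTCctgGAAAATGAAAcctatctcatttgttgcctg
OAS3, chr12:112938311-112938473, plus strand: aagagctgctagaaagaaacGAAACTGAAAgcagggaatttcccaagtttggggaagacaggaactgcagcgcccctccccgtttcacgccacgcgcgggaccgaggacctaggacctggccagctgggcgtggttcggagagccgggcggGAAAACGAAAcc
IFIH1, chr2:162318685-162318863, minus strand: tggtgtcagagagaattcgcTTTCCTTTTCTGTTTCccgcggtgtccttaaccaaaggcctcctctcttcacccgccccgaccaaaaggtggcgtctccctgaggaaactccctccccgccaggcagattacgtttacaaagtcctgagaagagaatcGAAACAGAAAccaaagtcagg
DDX60, chr4:168318776-168318860, minus strand: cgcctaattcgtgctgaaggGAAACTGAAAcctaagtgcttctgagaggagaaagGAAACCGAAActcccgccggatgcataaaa
ISG15, chr1:1013364-1013419, plus strand: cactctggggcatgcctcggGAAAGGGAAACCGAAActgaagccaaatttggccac
IFIT3, chr10:89332415-89332507, plus strand: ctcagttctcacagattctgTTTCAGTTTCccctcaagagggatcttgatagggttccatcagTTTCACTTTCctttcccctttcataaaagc
EPSTI1, chr13:42992262-42992311, minus strand: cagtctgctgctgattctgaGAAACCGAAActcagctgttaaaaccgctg
The next 4 belong to members whose RNA did not pass the test in that comparison, and they hold the same core.
IFIT1, chr10:89392487-89392549, plus strand: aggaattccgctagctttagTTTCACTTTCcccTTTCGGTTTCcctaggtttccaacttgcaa
BST2, chr19:17405725-17405780, minus strand: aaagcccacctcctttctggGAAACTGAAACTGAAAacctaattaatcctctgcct
SAMD9, chr7:93118086-93118135, minus strand: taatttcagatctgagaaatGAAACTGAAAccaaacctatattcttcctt
HERC5, chr4:88456974-88457074, plus strand: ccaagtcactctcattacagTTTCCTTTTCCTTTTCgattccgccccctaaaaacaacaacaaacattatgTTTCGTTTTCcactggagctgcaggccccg
PARP9 and DTX3L, whose proteins form 1 complex, start next to each other on opposite strands, and 1 match lies beside both starts. It is printed on the strand of DTX3L and runs past the annotated start of that gene.
DTX3L, chr3:122564322-122564351, plus strand: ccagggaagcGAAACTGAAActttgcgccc
The core was present in 13 of the 19 members with a window that were lower in silk than in LN/PC monocultures (68.4%), and in 8 of the 14 that were not called (57.1%). IRF1 and IRF9 held the GAS letters and no match to the response element core.

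Levels are given as normalized counts, obtained by inverting the log2 transformation of the authors' table. They are scaled for library size and not for gene length, so only levels of the same gene are compared. Differences are on the log2(normalized count + 1) scale with their standard error, and they understate the change of genes with low counts. A gene was called when limma gave a Benjamini-Hochberg adjusted p under 0.05 over all genes tested. The 12 epithelial libraries gave 1 fit with 14433 genes, in which all 41 members passed the filter of at least 10 normalized counts in at least 3 libraries. The fibroblast and epithelial monocultures gave another with 14502 genes, in which 40 members passed and IFI27 did not.

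Library totals ran from 9078771 to 12662726 normalized counts, and 1 read was worth about 0.754 to 1.31 of them. Of 18 fibroblast markers, 6 were at 0 in every silk monoculture, 6 in every LN/PC monoculture and 5 of these in both groups. Their summed level was 739387 to 824959 in fibroblast monocultures, 2792 to 3290.1 in silk co-cultures, 2473 to 2855 in silk monocultures, 129483 to 223201 in LN/PC co-cultures and 2076 to 2400.2 in LN/PC monocultures. Of 16 kidney tubule epithelial markers in the table, 7 were at 0 in all fibroblast monocultures, while AQP1, CUBN and ANPEP were higher there than in the epithelial monocultures. From 112 genes restricted to fibroblasts, fibroblast RNA was estimated at 0.0239%, 0% and 0.113% of the 3 silk co-cultures and 13.9%, 9.81% and 15.2% of the 3 LN/PC co-cultures. The groups did not overlap (exact permutation test, two-sided, p = 0.1, the smallest that 3 against 3 libraries allow). Fewer fibroblasts and less RNA per fibroblast cannot be told apart in such bulk RNA. Of 10 immune markers CD68 and CD74 were in the table, and their summed level was 523 to 581 in fibroblast monocultures, 774 to 898 in silk co-cultures, 97.5 to 221 in silk monocultures, 375 to 517 in LN/PC co-cultures and 219.7 to 332 in LN/PC monocultures. CD74 was at 0 in fibroblast monocultures, at 12.6 to 16.6 in silk co-cultures, 11.7 to 43.5 in silk monocultures, 3.74 to 24.7 in LN/PC co-cultures and 47.6 to 76.8 in LN/PC monocultures, and CD68 made up the rest. PECAM1, the 1 of 4 endothelial markers in the table, had 97.7 or less in every library. LN/PC monocultures varied among themselves: replicate 2 was the lowest of the 3 for 25 of 41 members, and replicate 3 the highest for 30 of 41, against 35.2% and 33.7% of all genes. Mitochondrially encoded transcripts took 6.58%, 4.67% and 4.23% of the counts of silk monocultures, against 2.12%, 3.80% and 1.50% of those of LN/PC monocultures. Their part in the membrane difference of these genes was not tested.

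**Figure D1:**
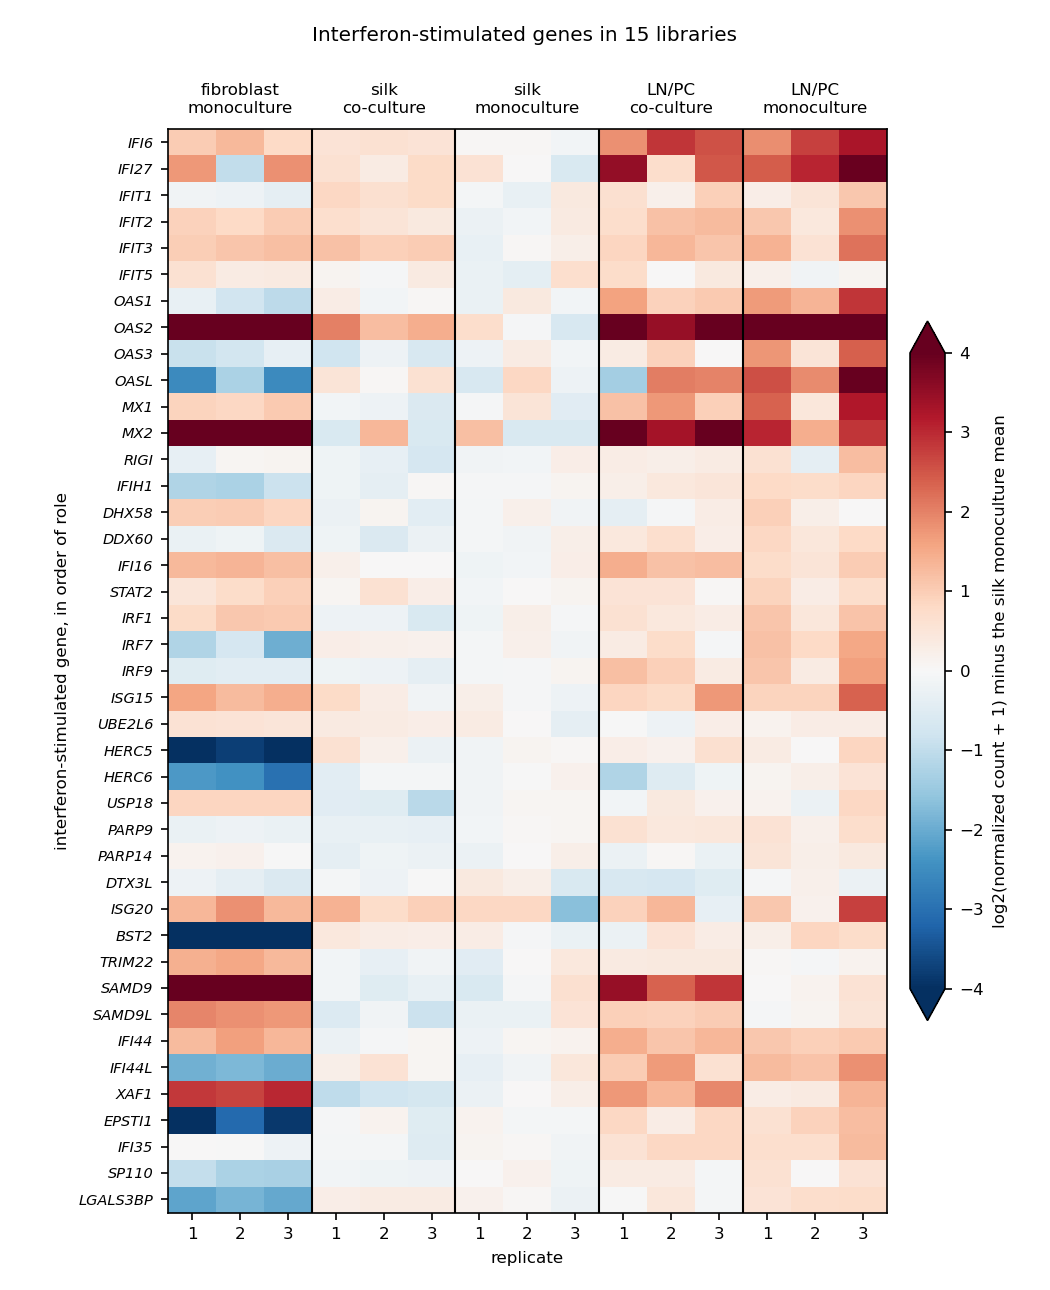
Heat map of log2(normalized count + 1) of the 41 members (rows, in order of role) in the 15 libraries (columns, by group and replicate), each minus the member's mean in silk monocultures. Colours saturate at 4 log2 units either way; the mean over the members was -0.03 to 0.05 in the silk monocultures and 0.69 to 1.47 in the LN/PC monocultures.

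The membrane was compared first without fibroblasts. In silk monocultures, 24 of the 41 members were lower than in LN/PC monocultures and none was higher. Over all genes tested, 11.7% were called, 5.79% lower and 5.88% higher. The median log2 difference of the members was -0.75, against 0.03 over all genes, and 40 of 41 members had a negative difference. Every silk library lay below every LN/PC library for 24 of 41 members (58.5%), against 12.3% of all genes. The oligoadenylate synthetase family (4 of 4), the MX proteins (2 of 2), the transcription factors (4 of 4), and IFI6 with IFI27 (2 of 2) were all called lower. In every silk library IFI27, OAS2, OASL and MX2 stayed under 10 normalized counts, so they passed the filter through LN/PC libraries alone. That filter favours a lower call on silk. Their calls in either kind of culture, and the counts that include them, are therefore not support of their own. In the group of ISG20, BST2, TRIM22, SAMD9 and SAMD9L, antiviral effectors outside the families above, 0 of 5 passed the test. Of the ISG15 pathway, 1 of 5 members passed.

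IFI6, a small membrane protein of mitochondria and endoplasmic reticulum that limits virus replication, was the member with the lowest adjusted p. It had 245, 246 and 219 normalized counts in the 3 silk monocultures, against 864, 1581 and 2284 in the 3 LN/PC monocultures. Its log2 difference was -2.62 ± 0.28 (SE, adjusted p = 3.62e-05), and the 3 LN/PC libraries themselves spanned a wider range than the silk libraries. IFI27, a related protein of the inner mitochondrial membrane, was barely detected on silk. It had 1.96, 0.985 and 0.296 normalized counts in silk monocultures, against 9.56, 15.1 and 29.5 in LN/PC monocultures, a log2 difference of -3.14 ± 0.68 (adjusted p = 0.00871). Both groups were low for this gene, and its call ended without LN/PC monoculture 3 (adjusted p = 0.0507).

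The oligoadenylate synthetases sense double-stranded RNA and make the messenger that activates RNase L, except OASL, which lacks that activity and acts on RIG-I signalling. OAS2 had 3.35, 1.59 and 0.724 normalized counts in silk monocultures, against 42.8, 44.1 and 69.9 in LN/PC monocultures. Its log2 difference of -4.27 ± 0.46 (adjusted p = 3.67e-05) was the largest among the members. OAS3 had 231, 334 and 247 in silk monocultures, against 907, 387 and 1408 in LN/PC monocultures, a difference of -1.56 ± 0.35 (adjusted p = 0.0106). LN/PC monoculture 2 lay closest to the silk libraries for OAS3, as it did for OASL. OASL had 2.74, 9.24 and 4.07 in silk monocultures, against 33.9, 20.5 and 119 in LN/PC monocultures (log2 difference -2.95 ± 0.80, adjusted p = 0.0265), with LN/PC monoculture 3 far above the other two. OAS1 averaged 51.5 ± 13.2 in silk monocultures, against 223 ± 131 in LN/PC monocultures (SD, n = 3 each; log2 difference -1.97 ± 0.35, adjusted p = 0.0023).

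MX1 and MX2 are dynamin-like GTPases that block viruses at early steps of infection. MX1 had 68.2, 99.8 and 50.9 normalized counts in silk monocultures, against 368, 97.0 and 653 in LN/PC monocultures. It was called (log2 difference -2.01 ± 0.48, adjusted p = 0.0154), but it is the 1 called member whose groups overlapped, since LN/PC monoculture 2 fell below silk monoculture 2. MX2, its neighbour in the genome, was near the detection limit. About 3 reads were counted over the 3 silk monocultures and 24 over the 3 LN/PC monocultures, a ratio of 8.39-fold lower on silk with a 95% exact (Clopper-Pearson) interval of 2.55 to 43.5 that covers counting error only. The call of MX2 ended with a pseudocount of 10 (adjusted p = 0.0865).

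**Figure D2:**
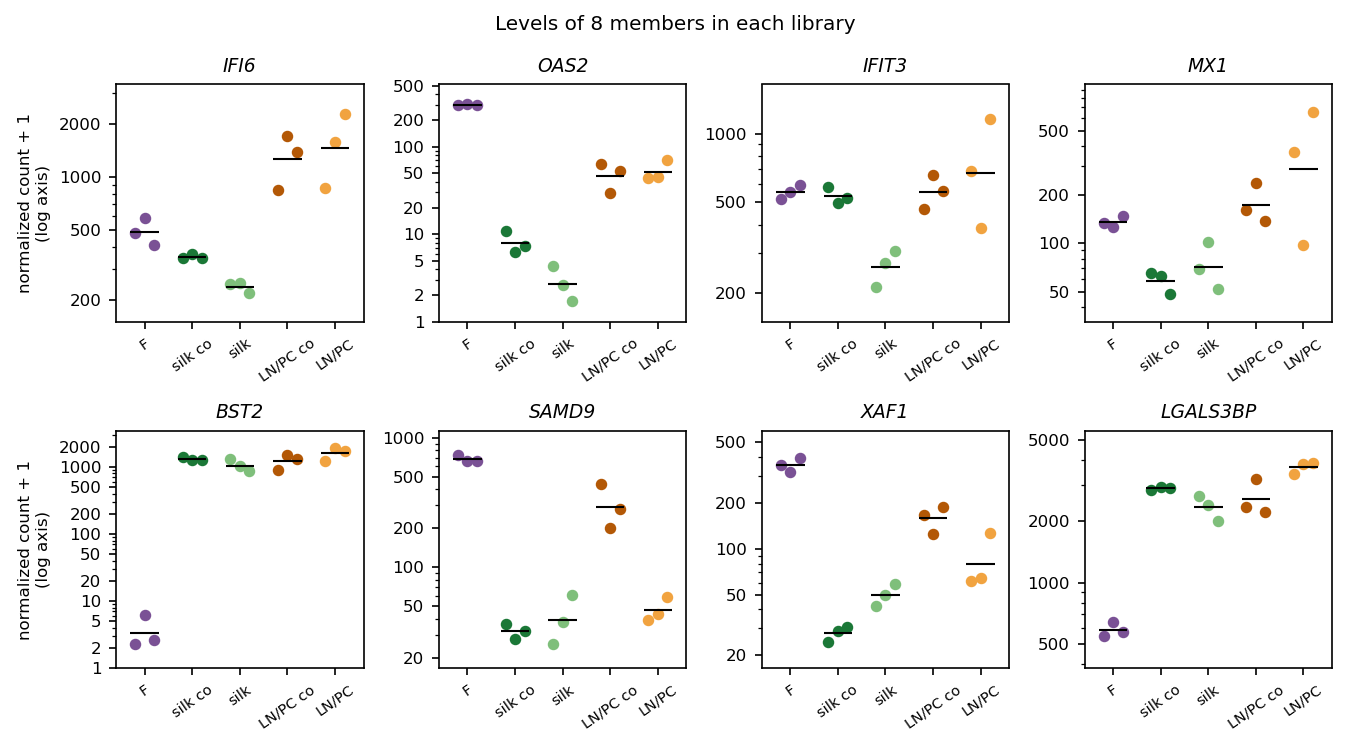
Normalized counts + 1 (log axis) of 8 members in every library, with a line at the mean of the log values of each group. F marks fibroblast monocultures, silk and LN/PC the epithelial monocultures on each membrane, and co the co-cultures; IFI6 and OAS2 are lower in all 6 silk libraries than in all 6 LN/PC libraries, and SAMD9 separates the LN/PC co-cultures from the other epithelial groups.

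All 4 transcription factors in the list were lower on silk, by 0.62 to 1.17 log2 units. STAT2, a subunit of ISGF3, had 1039, 1127 and 1195 normalized counts in silk monocultures, against 2062, 1365 and 1808 in LN/PC monocultures (log2 difference -0.62 ± 0.19, adjusted p = 0.0411; adjusted p = 0.0562 with library totals set equal and 0.0816 with the 2 groups alone). IRF9, the DNA-binding subunit of the same complex, had 498, 510.1 and 557 in silk monocultures, against 1134, 657 and 1627 in LN/PC monocultures (-1.03 ± 0.26, adjusted p = 0.0199). For both genes the LN/PC libraries were spread widely and LN/PC monoculture 2 was the lowest. IRF7, which drives the interferon-alpha genes, had 112, 136 and 107 in silk monocultures, against 268, 204 and 343 in LN/PC monocultures (-1.17 ± 0.24, adjusted p = 0.00601). IRF1, a factor induced most by interferon-gamma, had 139, 184 and 150.4 in silk monocultures, against 338, 216 and 348 in LN/PC monocultures (-0.90 ± 0.22, adjusted p = 0.0169). In each of these 4 genes every silk library lay below every LN/PC library.

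Among the sensors, IFIH1, which encodes the RNA sensor MDA5, had 143, 143 and 160.0 normalized counts in silk monocultures, against 260.5, 248 and 269.6 in LN/PC monocultures. Its replicates were close together in both groups, and the log2 difference was -0.80 ± 0.18 (adjusted p = 0.0119). The DNA sensor IFI16 averaged 930.1 ± 165 in silk monocultures, against 1565 ± 272 in LN/PC monocultures (-0.75 ± 0.16, adjusted p = 0.00889). The helicase DDX60 was lower as well (-0.68 ± 0.18, adjusted p = 0.0235). RIGI, the founding sensor of this group, had a difference of -0.50 ± 0.29 (adjusted p = 0.26) and DHX58, which encodes the regulator LGP2, of -0.41 ± 0.31 (adjusted p = 0.404), and neither passed the test.

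Of the IFIT proteins, which bind foreign RNA, IFIT3 and IFIT2 were lower on silk. IFIT3 averaged 262 ± 47.2 normalized counts in silk monocultures, against 745 ± 392 in LN/PC monocultures (log2 difference -1.38 ± 0.28, adjusted p = 0.00629), and IFIT2 differed by -1.10 ± 0.28 (adjusted p = 0.0197). IFIT1, which recognises RNA without a host cap, had 218, 189.7 and 302 in silk monocultures, against 278, 330.1 and 495 in LN/PC monocultures. The groups overlapped and the difference of -0.62 ± 0.24 did not pass the test (adjusted p = 0.0995). IFIT5 differed by -0.06 ± 0.25 (adjusted p = 0.914), and its sign changed when library totals or upper quartiles were set equal. The 4 IFIT genes are neighbours in the genome.

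ISG15 is a ubiquitin-like protein that is joined to other proteins by UBE2L6 and HERC5 and removed by USP18. ISG15 itself had 34.1, 28.3 and 25.1 normalized counts in silk monocultures, against 54.0, 54.7 and 152 in LN/PC monocultures (log2 difference -1.38 ± 0.41, adjusted p = 0.0394; adjusted p = 0.0541 with library totals set equal and 0.0678 with the 2 groups alone), with LN/PC monoculture 3 well above the other two. The enzymes did not pass the test, with differences of -0.25 ± 0.19 for UBE2L6, -0.40 ± 0.32 for HERC5, -0.30 ± 0.26 for HERC6 (the ligase of this pathway in mice) and -0.25 ± 0.34 for USP18. PARP9 was lower (-0.49 ± 0.15, adjusted p = 0.0409; adjusted p = 0.0837 with library totals set equal and 0.142 with the 2 groups alone), and its partner DTX3L, whose start lies beside the same match, differed by 0.02 ± 0.22 (adjusted p = 0.975). The annotated spans of PARP9 and DTX3L overlap, and how reads of the overlap were assigned is not given in the sources used here.

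BST2, or tetherin, holds budding virus at the cell surface, and it had 1297, 1022 and 871 normalized counts in silk monocultures, against 1240.3, 1889 and 1727 in LN/PC monocultures. LN/PC monoculture 1 lay within the silk range, and the difference of -0.60 ± 0.20 did not pass the test (adjusted p = 0.0656). TRIM22, SAMD9 and SAMD9L, other antiviral proteins, differed by -0.05 ± 0.18, -0.25 ± 0.35 and -0.20 ± 0.24 with adjusted p values of 0.891, 0.684 and 0.619; the sign for TRIM22 changed when library totals or upper quartiles were set equal. LGALS3BP, a secreted glycoprotein that binds galectin-3, had 2660.1, 2413 and 2003 in silk monocultures, against 3403, 3834 and 3863 in LN/PC monocultures, with every silk library below every LN/PC library (-0.66 ± 0.16, adjusted p = 0.0173). The neighbours IFI44L and IFI44 were lower, with differences of -1.41 ± 0.27 (adjusted p = 0.00372) and -1.02 ± 0.19 (adjusted p = 0.00381), as were EPSTI1 (-0.93 ± 0.23) and IFI35 (-0.87 ± 0.21). XAF1, which binds the apoptosis inhibitor XIAP, had every silk library below every LN/PC library but did not pass (-0.68 ± 0.31, adjusted p = 0.163).

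The calls of LGALS3BP, IFIT2 and DDX60 ended with the 2 groups alone (adjusted p = 0.0617, 0.052 and 0.0632). The number of members called between the monocultures depended on single libraries. Without LN/PC monoculture 3 it was 9, namely IFI6, IFIT3, OAS1, OAS2, IFIH1, IFI16, IRF7, IFI44 and IFI44L, and these 9 were called whichever of the 12 libraries was left out. Without silk monoculture 3 it was 15, and without LN/PC monoculture 2 it was 26. Calls over all genes shifted as well, from 11.7% with every library to 4.83% without LN/PC monoculture 3. They were 7.22% without silk monoculture 3 and 22.3% without LN/PC monoculture 2.

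With fibroblasts present, the membrane comparison was repeated between the co-cultures, which share no library with the monocultures. Both comparisons came from 1 fit with 1 estimate of the spread, so their calls are not independent. In silk co-cultures, 20 of 41 members were lower than in LN/PC co-cultures and none was higher, where 36.1% of all genes were called, 17.6% lower and 18.5% higher. The median log2 difference of the members was -0.77, against 0.03 over all genes. Every silk co-culture lay below every LN/PC co-culture for 24 of 41 members (58.5%), against 26.2% of all genes. Of the 20 members called, 16 had also been lower between the monocultures, which is 16 of 20 here and 16 of 24 there. The matching overlap over all genes was not counted, so the 16 cannot be read as particular to the members. The fibroblast share differed between the 2 groups as given above, so the comparison was repeated with fibroblast libraries mixed in silico into the silk co-cultures by the difference in mean share, an alternative chosen after seeing the data. Each mixture used the fibroblast library of the same replicate number, a pairing that the labels do not state. In that setting 16 members were called, where 27.5% of all genes were. DTX3L had 379.7, 350.0 and 396 normalized counts in silk co-cultures while LN/PC co-cultures had 257, 254 and 287 (log2 difference 0.50 ± 0.22, adjusted p = 0.0872), without overlap of the groups. It was called higher on silk with library totals set equal (0.63, adjusted p = 0.0472), with the 2 groups alone (adjusted p = 0.0167) and without silk monoculture 3 (adjusted p = 0.023).

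IFI6 had 346, 361 and 344 normalized counts in silk co-cultures while LN/PC co-cultures had 839, 1706 and 1376. The log2 difference was -1.84 ± 0.28 (adjusted p = 0.000135), and it was -1.76 after mixing. IRF9 had 459.9, 454 and 409 in silk co-cultures while LN/PC co-cultures had 1189, 1008 and 649 (-1.06 ± 0.26, adjusted p = 0.00544). MX1 had 64.6, 61.3 and 47.1 in silk co-cultures while LN/PC co-cultures had 159, 236 and 137 (-1.58 ± 0.48, adjusted p = 0.0187), here without overlap. IFIH1 had 133, 116 and 152 in silk co-cultures while LN/PC co-cultures had 174, 199 and 208 (-0.54 ± 0.18, adjusted p = 0.0311; adjusted p = 0.131 with library totals set equal). IFI44 (-1.37), IFI16 (-1.21), OAS1 (-1.10), IFI35 (-0.97), PARP9 (-0.80), IFI44L (-0.80), EPSTI1 (-0.78) and DDX60 (-0.77) were also lower, as was OAS3, which had 153, 231 and 169 in silk co-cultures while LN/PC co-cultures had 339, 503 and 273 (-0.98 ± 0.35, adjusted p = 0.0381).

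Of the 20 calls, 4 ended after mixing, those of OAS2, MX2, IRF1 and TRIM22. The calls of OAS3 and MX1 stayed just under the threshold (limma adjusted p = 0.0459 and 0.0488 after mixing). Without mixing, neither was called in every fit with a library left out. OAS2 had 9.82, 5.27 and 6.35 normalized counts in silk co-cultures while LN/PC co-cultures had 61.9, 29.0 and 52.4, a log2 difference of -2.55 ± 0.46 (adjusted p = 0.000581), which became -0.01 (adjusted p = 0.982). MX2 had about 3 reads over the silk co-cultures and 61 over the LN/PC co-cultures, 23.7-fold lower on silk (95% exact interval 7.73 to 118), and after mixing its log2 difference was -0.86 (adjusted p = 0.304). IRF1 had 135, 137 and 103 in silk co-cultures while LN/PC co-cultures had 237, 210.0 and 191 (-0.77 ± 0.22, adjusted p = 0.0132; adjusted p = 0.0785 after mixing). TRIM22, which averaged 967 ± 74.1 in silk co-cultures while LN/PC co-cultures had 1430.5 ± 13.9, lost its call as well (-0.57 ± 0.18, adjusted p = 0.0214; adjusted p = 0.35 after mixing and 0.0683 with library totals set equal).

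Like TRIM22, SAMD9, SAMD9L and XAF1 were lower in silk than in LN/PC co-cultures although they had not passed the test between the monocultures. SAMD9, a host factor against poxviruses that also restrains cell growth, had 35.6, 26.8 and 31.1 normalized counts in silk co-cultures while LN/PC co-cultures had 435, 201 and 282 (log2 difference -3.19 ± 0.35, adjusted p = 5.19e-06). After mixing, the difference was -1.33 (adjusted p = 0.00893). XAF1 had 23.5, 27.7 and 29.6 in silk co-cultures while LN/PC co-cultures had 166, 125 and 188 (-2.51 ± 0.31, adjusted p = 1.68e-05; -1.17 after mixing). SAMD9L, the neighbour and relative of SAMD9, differed by -1.50 ± 0.24 (adjusted p = 0.000203) and by -0.87 after mixing. These 3 members kept their calls after mixing, each with a smaller difference. That mixing used the mean shares from marker medians alone. The larger share that summed markers gave for LN/PC co-cultures, 20.9%, was not tried in this comparison.

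None of the 4 IFIT genes passed the test between the co-cultures. IFIT1 had 414, 362 and 396 normalized counts in silk co-cultures while LN/PC co-cultures had 363, 267 and 453 (log2 difference 0.14 ± 0.24, adjusted p = 0.664). IFIT3 differed by -0.06 ± 0.28 (adjusted p = 0.883), and its sign changed with library totals set equal. The same holds for STAT2, which had 1171, 1711 and 1356 in silk co-cultures while LN/PC co-cultures had 1641, 1628 and 1165 (-0.06 ± 0.19, adjusted p = 0.811), and for IRF7, which had 140.0, 136 and 132 in silk co-cultures while LN/PC co-cultures had 147, 198 and 115 (-0.13 ± 0.24, adjusted p = 0.686). ISG15 had 50.2, 35.6 and 25.9 in silk co-cultures while LN/PC co-cultures had 53.7, 49.6 and 98.7, with overlap (-0.82 ± 0.41, adjusted p = 0.129). BST2 was at 1264 to 1412 in silk co-cultures, within the LN/PC co-culture range of 896 to 1521. LGALS3BP had 2835, 2947 and 2913 in silk co-cultures while LN/PC co-cultures had 2337, 3239 and 2216, and OASL had 7.33, 5.05 and 7.87 in silk co-cultures while LN/PC co-cultures had 1.25, 22.9 and 21.9, and the groups overlapped in both genes. IFI27 stayed low on silk, with 2.01, 1.45 and 2.31 in silk co-cultures while LN/PC co-cultures had 21.7, 2.21 and 10.0, and LN/PC co-culture 2 lay within the silk range (-1.68 ± 0.68, adjusted p = 0.0637). A miss of the threshold does not show that any of these genes had the same level on both membranes. Without silk co-culture 3, 13 members were called between the co-cultures, where 24.5% of all genes were. Whichever library was left out, 12 members were called, among them IFI6, OAS2, SAMD9, XAF1, IFI44, IFI16, IRF9 and PARP9.

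**Figure D3:**
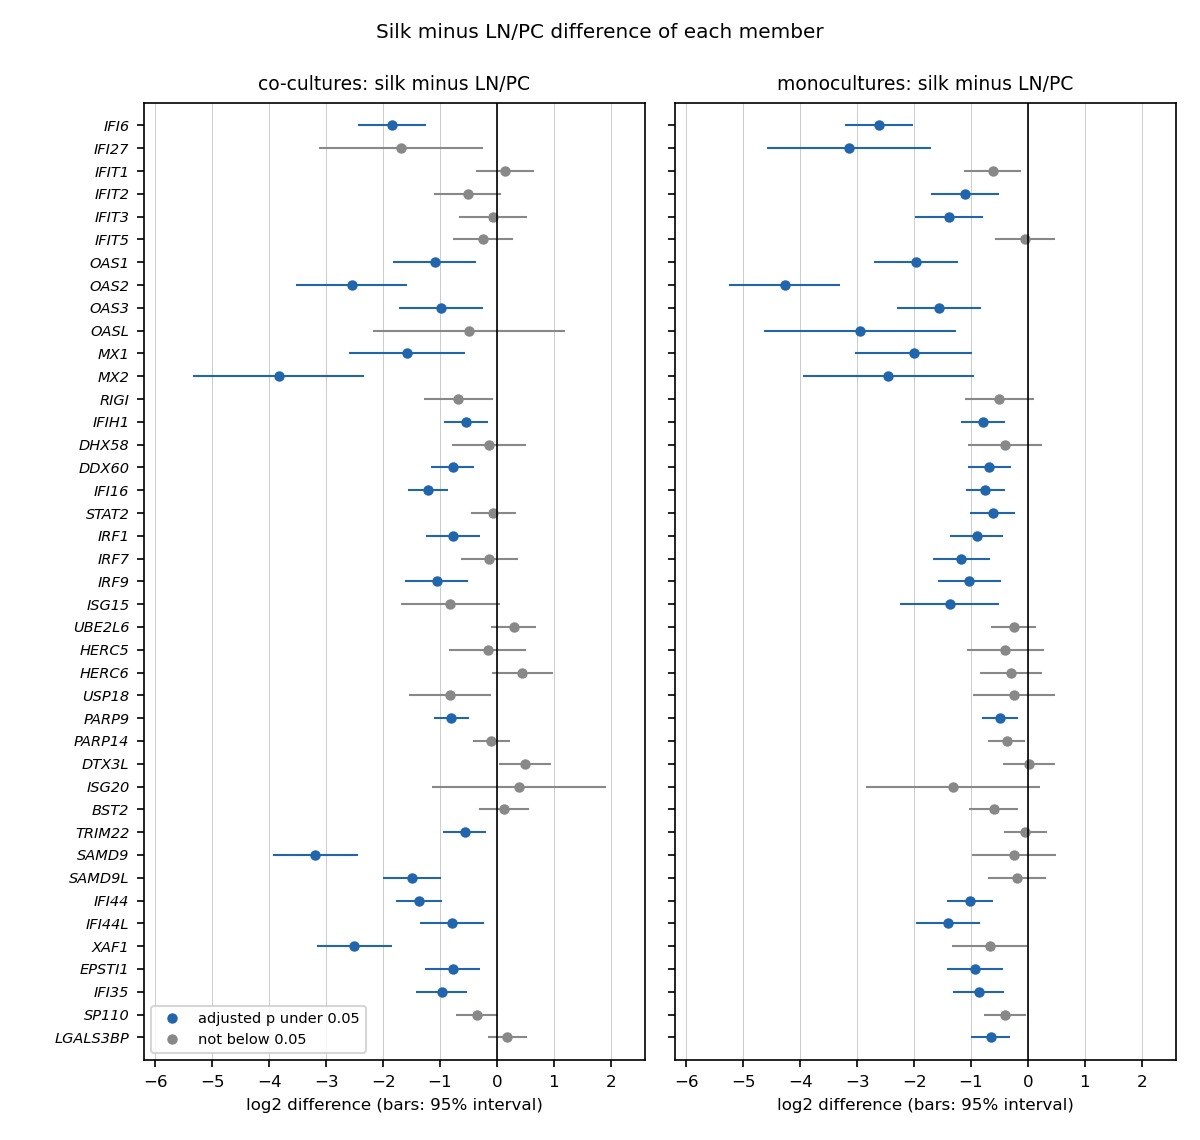
Log2 difference, silk minus LN/PC, of each of the 41 members with its 95% interval, between co-cultures (left) and between monocultures (right); blue points passed an adjusted p of 0.05 over all genes. All 24 members called between the monocultures and all 20 called between the co-cultures lie left of 0, and SAMD9, SAMD9L, XAF1 and TRIM22 passed between the co-cultures, whose fibroblast shares differ, but not between the monocultures.

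The effect of adding fibroblasts was then examined on each membrane. Between silk co-cultures and silk monocultures no member was called by limma, where 3.78% of all genes were called, and at an unadjusted p under 0.05 there were 3 higher and 2 lower. How many of all genes had an unadjusted p under 0.05 was not counted. The median log2 difference was -0.07, against 0.00 over all genes. IFIT3 came nearest, with 534 ± 44.2 normalized counts in silk co-cultures and 262 ± 47.2 in silk monocultures (SD, n = 3 each), and the groups did not overlap (1.04 ± 0.28, adjusted p = 0.0506). It passed with a pseudocount of 10 (adjusted p = 0.0427). It also passed with monocultures mixed with fibroblast RNA, at 0.0457% on silk and 13.0% on LN/PC (adjusted p = 0.0269). The mixed LN/PC monocultures enter the shared spread and the adjustment of that fit, so its p does not rest on the silk libraries alone. IFIT3 passed as well in a fit of the 2 groups alone (adjusted p = 0.00144). In that last fit IFIT1 (0.75, adjusted p = 0.0214) and IFI6 (0.57, adjusted p = 0.0347) passed as well. For OAS2 every silk co-culture lay above every silk monoculture (1.56 ± 0.46, adjusted p = 0.074), at levels far below those on LN/PC. The groups were apart in this direction for 6 members and in the other for 8. Among the 8 were XAF1, with means of 26.9 in silk co-cultures and 49.2 in silk monocultures, and USP18, with 23.2 and 36.9. The matching shares of all genes are not given for this comparison.

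On LN/PC, 9 members were called between co-cultures and monocultures, 4 higher and 5 lower, where 12.5% of all genes were called, 7.80% higher and 4.72% lower. The median log2 difference of the members was -0.23, against -0.04 over all genes. SAMD9, XAF1, SAMD9L and IFI16 were the 4 that were higher. SAMD9 had 435, 201 and 282 normalized counts in LN/PC co-cultures, against 38.1, 42.2 and 57.9 in LN/PC monocultures (log2 difference 2.66 ± 0.35, adjusted p = 4.58e-05). Each co-culture exceeded each monoculture for SAMD9, while XAF1 overlapped, with 166, 125 and 188 in LN/PC co-cultures and 60.1, 63.4 and 126 in LN/PC monocultures (0.99 ± 0.31, adjusted p = 0.0452). SAMD9L differed by 0.77 ± 0.24 (adjusted p = 0.0459) and IFI16 by 0.54 ± 0.16 (adjusted p = 0.0398). All 4 were also higher in fibroblast than in LN/PC monocultures. The lower ones were OAS3 (-1.13 ± 0.35, adjusted p = 0.0434), HERC6 (-0.93 ± 0.26, adjusted p = 0.0238), IRF7 (-0.82 ± 0.24, adjusted p = 0.0314), PARP14 (-0.53 ± 0.15, adjusted p = 0.0289) and LGALS3BP (-0.53 ± 0.16, adjusted p = 0.0412). With library totals set equal, 7 members were called, 1 higher and 6 lower, where 16% of all genes were called.

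These calls were then set against LN/PC monocultures mixed in silico with fibroblast libraries at the mean share of the LN/PC co-cultures, 13.0%. SAMD9 alone was called, where 4.34% of all genes were, at 2.66 ± 0.35 against the monocultures as they are and 1.17 against the mixtures (adjusted p = 0.0467). Mean levels of SAMD9 were 305.8 in LN/PC co-cultures, 129 in the mixtures, 46.1 in LN/PC monocultures and 685 in fibroblast monocultures. XAF1, SAMD9L and IFI16 differed from these mixtures by 0.44, 0.41 and 0.45 (adjusted p = 0.362, 0.3 and 0.0992). Mean levels of IFI16 were 2258 in LN/PC co-cultures, 1653 in the mixtures, 1565 in LN/PC monocultures and 2243 in fibroblast monocultures. At a share of 20.9%, which summed markers gave, no member was called, where 4.9% of all genes were, and SAMD9 differed by 0.69 (adjusted p = 0.201). At an unadjusted p under 0.05, 2 members were higher and 8 lower than in the mixtures at that share. The share of all genes at this unadjusted threshold was not counted, so these counts have no background. The 5 lower members had differences of -0.98 (OAS3), -0.76 (HERC6), -0.67 (IRF7), -0.50 (PARP14) and -0.36 (LGALS3BP) against the mixtures at 13.0%, with adjusted p values of 0.103, 0.0884, 0.102, 0.0629 and 0.193. Single libraries mattered here too, since SAMD9 was the sole call without LN/PC co-culture 1, where 5.31% of all genes were called. No other call held whichever library was left out.

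**Figure D4:**
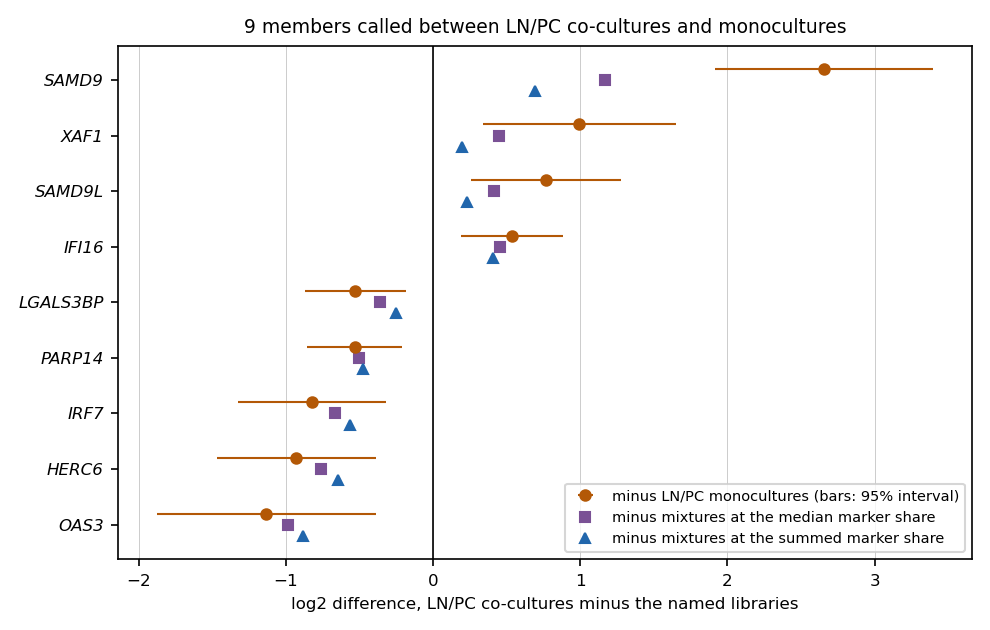
Log2 difference of LN/PC co-cultures from LN/PC monocultures (circles, with 95% intervals) and from monocultures mixed in silico with fibroblast libraries at a fibroblast share of 13.0% (squares) and 20.9% (triangles), for the 9 members called in the first of these. SAMD9 lies at 2.66 (circle), 1.17 (square) and 0.69 (triangle), and OAS3 at -1.13, -0.98 and -0.88.

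Whether co-culture changed the members differently on silk and on LN/PC was tested with the interaction term, the change with fibroblasts on silk minus that on LN/PC. It was called for 4 of 41 members (9.76%), near the 7.73% of all genes that were called, 3.15% positive and 4.59% negative. SAMD9 (-2.94 ± 0.50, adjusted p = 0.00105), XAF1 (-1.83 ± 0.44, adjusted p = 0.0154) and SAMD9L (-1.30 ± 0.34, adjusted p = 0.0267) were negative. LGALS3BP was positive (0.84 ± 0.23, adjusted p = 0.0335), with changes of 0.31 on silk and -0.53 on LN/PC. None of the 4 was called once the monocultures of each membrane had been mixed at the share of its co-cultures, with interaction values of -1.47, -1.29, -0.94 and 0.67 in the same order. In that setting 1 of 41 members was called, OAS2 (2.35, adjusted p = 0.0427), where 3.54% of all genes were. At the summed-marker share 2 were called, OAS2 (2.54) and IFIT3 (1.28, adjusted p = 0.0478), where 4.32% of all genes were. Both counts are near the share of all genes. Without LN/PC co-culture 3, SAMD9 was the only call, where 4.47% of all genes were called.

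The members were also compared between fibroblast and epithelial monocultures. Against silk monocultures, 27 of the 40 tested members (67.5%) were called in fibroblast monocultures, 17 higher and 10 lower, where 54.9% of all genes were called, 26.2% higher and 28.7% lower. With library totals set equal the split was 10 higher and 17 lower, a scaling that moved the median difference of all genes by -0.42. Against LN/PC monocultures, 25 of 40 (62.5%) were called, 7 higher and 18 lower, where 54.3% of all genes were called, 26.0% higher and 28.3% lower. The median log2 difference of the tested members was 0.26 against silk and -0.46 against LN/PC monocultures, and -0.02 and -0.03 over all genes. Both comparisons use the same fibroblast libraries.

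OAS2, MX2, SAMD9, SAMD9L, XAF1, TRIM22 and IFI16 were higher in fibroblasts than in both epithelial monocultures (for IFI16 against LN/PC monocultures, the call ended with library totals set equal, adjusted p = 0.222, and without fibroblast monoculture 2 or LN/PC monoculture 2). SAMD9 had 732, 665 and 658 normalized counts in fibroblast monocultures, against 24.5 to 60.5 in silk monocultures, against 38.1 to 57.9 in LN/PC monocultures (log2 differences 4.13 ± 0.31 and 3.89 ± 0.31). OAS2 had 297, 305 and 299.5 in fibroblast monocultures, and the differences were 6.81 ± 0.37 from silk and 2.54 ± 0.37 from LN/PC monocultures. XAF1 had 353, 319.5 and 397 in fibroblast monocultures (2.84 ± 0.29 from silk and 2.17 ± 0.29 from LN/PC monocultures). The fibroblast libraries were close together for all 3 genes and above every epithelial monoculture. MX2 had 240 reads over the fibroblast libraries and 3 over the silk monocultures, 94.9-fold higher in fibroblasts (95% exact interval 32.1 to 463). Without the fibroblast libraries MX2 would not have passed the filter of this fit.

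Other members were at or near 0 in fibroblasts. BST2 had 1.28, 5.23 and 1.66 normalized counts in fibroblast monocultures, against 871 to 1297 in silk monocultures, against 1240.3 to 1889 in LN/PC monocultures (log2 differences -8.29 ± 0.35 and -8.89 ± 0.35). HERC5 had about 2 reads over the fibroblast libraries and was 50.6-fold lower than in silk monocultures (95% exact interval 13.7 to 423) and 66.3-fold lower than in LN/PC monocultures (18.0 to 553). OASL had about 1 read (0, 1.42 and 0 normalized counts) and was 14.3-fold lower than in silk monocultures (2.25 to 599) and 138-fold lower than in LN/PC monocultures (24.4 to 5483). EPSTI1, LGALS3BP, IFI44L, HERC6, IFIH1, IRF7 and SP110 were lower in fibroblasts than in both epithelial monocultures, among them LGALS3BP with 547, 642 and 571 in fibroblast monocultures, IFIH1 with 63.4, 61.8 and 80.8 and IRF7 with 50.9, 73.4 and 29.5.

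For other members the comparison turned on the membrane of the epithelial cells. IFI6 had 478, 585 and 409.9 normalized counts in fibroblast monocultures, higher than in silk monocultures (1.04 ± 0.29, adjusted p = 0.0101; adjusted p = 0.0808 with library totals set equal) and lower than in LN/PC monocultures (-1.59 ± 0.29, adjusted p = 0.00068). MX1 had 133, 125 and 146 in fibroblast monocultures, with differences of 0.92 ± 0.55 from silk (adjusted p = 0.175) and -1.08 ± 0.55 from LN/PC monocultures (adjusted p = 0.117). IRF9 had 370.2, 389 and 390.3 in fibroblast monocultures, below LN/PC monocultures (-1.47 ± 0.26, adjusted p = 0.00052) and at -0.44 ± 0.26 from silk monocultures (adjusted p = 0.168). ISG15 had 87.9, 71.7 and 80.1, STAT2 1549, 1843 and 2176 and IRF1 265, 329.9 and 323 in fibroblast monocultures, and all 3 were higher than in silk monocultures (1.43 ± 0.38, 0.72 ± 0.18 and 0.95 ± 0.22) without a call against LN/PC monocultures. The call for STAT2 against silk ended with library totals set equal (adjusted p = 0.126), as did those for IFIT2, IFIT3, DHX58, UBE2L6 and USP18. IFIT1 had 211, 202 and 181 in fibroblast monocultures, lower than in LN/PC monocultures (-0.85 ± 0.24, adjusted p = 0.0108). IFI27, with 5.59, 0 and 6.05 in fibroblast monocultures, was not tested there.

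The genes that carry the interferon signal were examined next. Of 10 interferon genes in the list used, IFNE alone was in the table. It had 12.9, 14.0 and 16.7 normalized counts in silk monocultures, against 5.07, 10.1 and 1.44 in LN/PC monocultures, and the difference of 1.49 ± 0.53 did not pass the test (adjusted p = 0.0756); its difference between the co-cultures was 0.21 ± 0.53 (adjusted p = 0.78). The other interferon genes were not analysed here. Of 5 receptor genes in the table, 3 were lower and none higher in silk than in LN/PC monocultures, where 11.7% of all genes were called, 5.79% lower. Between the co-cultures 2 (40%) were lower and none higher, near the 36.1% of all genes called in either direction, where 17.6% were lower. The same shares of all genes apply to the counts of the lists that follow. IFNAR2, a chain of the type I receptor, had 369.7, 340.4 and 313 in silk monocultures, against 791, 375 and 1095 in LN/PC monocultures (-1.01 ± 0.27, adjusted p = 0.0249). LN/PC monoculture 2 lay close to the silk libraries, and the difference between the co-cultures was -0.45 ± 0.27 (adjusted p = 0.202). IFNAR1, the other chain, differed by -0.79 ± 0.22 between the monocultures (adjusted p = 0.031) and by -0.36 ± 0.22 between the co-cultures (adjusted p = 0.217). IFNGR1, a chain of the interferon-gamma receptor, was lower on silk in both kinds of culture (-1.08 ± 0.21 in monocultures and -0.83 ± 0.21 in co-cultures). IFNGR2 was lower on silk between the co-cultures (-0.62 ± 0.19, adjusted p = 0.0191; -0.43 ± 0.19 in monocultures, adjusted p = 0.143), and IL10RB, which serves type III interferons, passed in neither (0.10 ± 0.23 and -0.35 ± 0.23).

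Of 4 kinase and STAT genes examined, STAT3 and TYK2 were lower on silk in both kinds of culture. STAT3, which serves cytokines such as interleukin-6, had 3509.8, 3904 and 3188 normalized counts in silk monocultures, against 11723, 5881 and 13108 in LN/PC monocultures (log2 difference -1.46 ± 0.27, adjusted p = 0.00319). Silk co-cultures had 2956, 3674 and 3366 of STAT3 while LN/PC co-cultures had 6706, 8259.6 and 4285 (-0.90 ± 0.27, adjusted p = 0.0161). Every silk library lay below every LN/PC library in both comparisons. TYK2, a kinase bound to the type I receptor, had 496, 617 and 627 in silk monocultures, against 826, 731 and 1207 in LN/PC monocultures (-0.64 ± 0.18, adjusted p = 0.0331), and it differed by -0.67 ± 0.18 between the co-cultures (adjusted p = 0.00943), again without overlap in either. JAK1 (-0.44 ± 0.24 and -0.27 ± 0.24) and JAK2 (0.10 ± 0.28 and -0.01 ± 0.28) did not pass in either. None of these 4 genes was called between co-cultures and monocultures of the same membrane, and among the receptors IFNAR2 was lower in LN/PC co-cultures than in LN/PC monocultures (-0.85 ± 0.27, adjusted p = 0.0483).

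**Figure D5:**
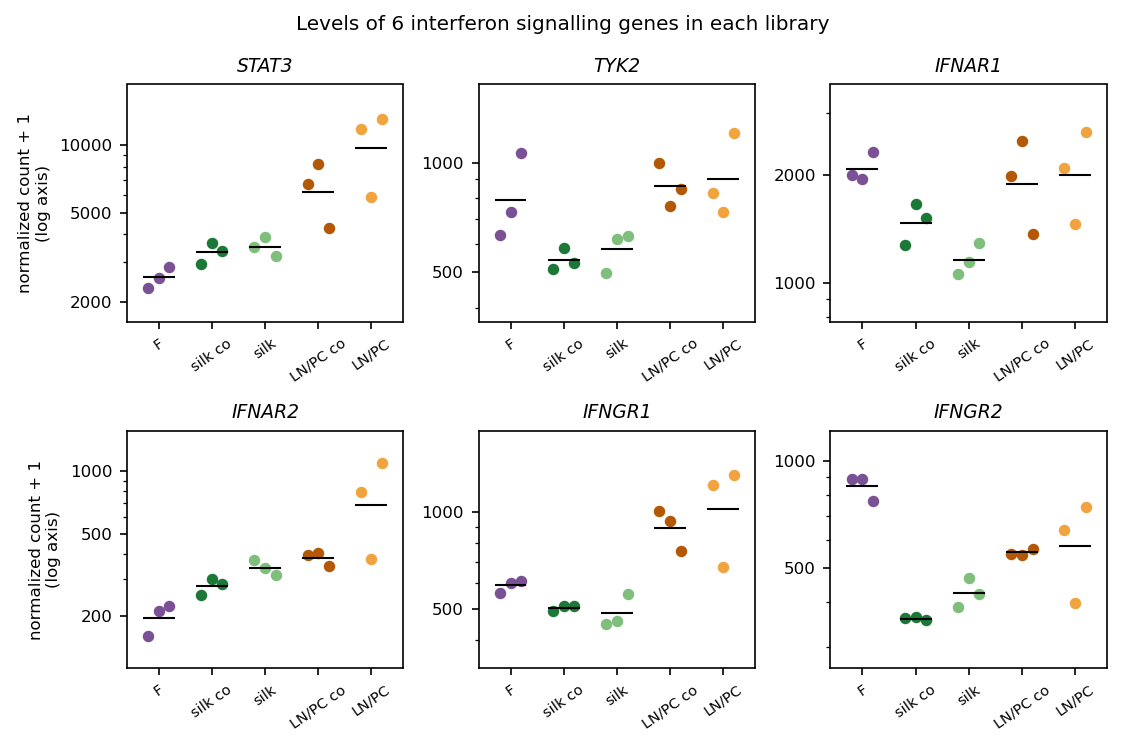
Normalized counts + 1 (log axis) of 6 interferon signalling genes in every library, with a line at the mean of the log values of each group; F marks fibroblast monocultures and co the co-cultures. STAT3 is lower in all 6 silk libraries than in all 6 LN/PC libraries, and LN/PC monoculture 2 is the lowest LN/PC monoculture in all 6 panels.

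Of 9 sensors and adaptors upstream of interferon that were tested, 1 (11.1%) was lower and none higher in silk than in LN/PC monocultures, near the 11.7% of all genes, and 4 were lower and 3 higher in silk than in LN/PC co-cultures, where 17.6% and 18.5% of all genes were. IRF3, which drives interferon-beta, was lower on silk in both (-0.74 ± 0.20, adjusted p = 0.0269 in monocultures; -0.76 ± 0.20, adjusted p = 0.00814 in co-cultures). STING1, the adaptor of cytosolic DNA sensing, was lower in silk co-cultures (273 ± 17.1 normalized counts) than in LN/PC co-cultures (553 ± 82.4, SD, n = 3 each; adjusted p = 0.000576) and higher in LN/PC co-cultures than in LN/PC monocultures (0.67 ± 0.18, adjusted p = 0.0219). STING1 was also higher in fibroblast than in silk monocultures (0.80 ± 0.18, adjusted p = 0.00299). It averaged 466 ± 53.2 in fibroblast monocultures and 346 ± 48.7 in LN/PC monocultures, both below its mean in LN/PC co-cultures. The part of fibroblast RNA in its differences was not tested. MAVS, the adaptor of RIG-I, was higher in silk than in LN/PC co-cultures (0.88 ± 0.19, adjusted p = 0.00245), as were TICAM1 (0.96 ± 0.29) and TRIM25 (0.80 ± 0.16). Of 5 negative regulators none was called between the monocultures, while SOCS3 was lower (-0.96 ± 0.23, adjusted p = 0.00472) and SOCS1 and TRIM21 higher (1.19 ± 0.37 and 0.64 ± 0.23) in silk than in LN/PC co-cultures. SOCS3 was higher in LN/PC co-cultures than in LN/PC monocultures (1.17 ± 0.23, adjusted p = 0.00237), and 76.0, 38.0 and 65.9 normalized counts in fibroblast monocultures were below every epithelial library.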

How the data were processed

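RNA from 15 poly-A libraries was sequenced. The authors used Salmon 1.10.3 and DESeq2, per the submitters' processing notes. Neither the build nor the annotation is stated. The deposited table gives log2 values, and their shape (a floor at 5.53664461 in every library) is that of a variance-stabilizing transformation, a step that no label records. They were inverted to normalized counts; a check found the same median ratio to the geometric mean in every library over 13121 genes, with a spread of 6.27e-09. The design had assumed linear values, so the log2 unit led to this inversion. No count model was used, because in the low range only 35.5% to 56.9% of values per library lay within 0.1 of whole reads. By the size of that step libraries held about 8590000 to 13490000 assigned reads, and intervals cover counting error only.

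Genes with at least 10 normalized counts in at least 3 libraries of a fit were tested on log2(value + 1) with limma 3.58.1 (R 4.3.3, trend), with groups as coefficients and Benjamini-Hochberg adjustment over all genes, after tests on simulated data. Alternatives were a pseudocount of 10, no filter, the deposited log2 values as they stand, library totals or upper quartiles set equal, the replicate number as a block, the 2 compared groups alone, each library left out, and mixtures with fibroblast libraries. Fibroblast share was estimated from 112 genes that had 1000 or more normalized counts in fibroblasts, 100 or more times their level in either epithelial monoculture: it is the median, in percent, of each gene's excess over monocultures divided by its excess in fibroblasts. Members and lists were chosen with earlier results of these data known. Values in every library are given for a panel of 14 members and for the 2 largest called changes of each epithelial comparison with a mean of at least 50, the others by means, ranges and counts. Promoter windows came from RefSeq (GRCh38.p14). Of a list of signalling genes, 1 is not reported here.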

Additional observations from a re-analysis of the deposited data

Results flagged for a closer look

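The change with fibroblasts differed between silk and LN/PC for 4 of 41 members (9.76%, where 7.73% of all genes were called) by the test of the difference itself, the interaction term, in which a negative value means a smaller rise or a larger fall on silk. SAMD9 had an interaction of -2.943 on the log2 scale, with changes of -0.29 on silk and 2.66 on LN/PC. XAF1 had -1.832, with -0.84 on silk and 0.99 on LN/PC. SAMD9L had -1.295, with -0.53 on silk and 0.77 on LN/PC. LGALS3BP had 0.8355, with 0.31 on silk and -0.53 on LN/PC. SAMD9, XAF1 and SAMD9L were higher, and LGALS3BP lower, in fibroblast than in either epithelial monoculture, and the estimated fibroblast share averaged 0.0457 ± 0.0597% of the RNA of silk co-cultures and 13.0 ± 2.80% of that of LN/PC co-cultures (SD, n = 3 each). Against monocultures mixed at these shares the interactions were -1.47 for SAMD9 (adjusted p = 0.0838), -1.29 for XAF1 (adjusted p = 0.0766), -0.94 for SAMD9L (adjusted p = 0.114) and 0.67 for LGALS3BP (adjusted p = 0.109), none of them called and all of the same sign as before.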

How the results depend on the processing

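No called member changed sign under any alternative. Between silk and LN/PC monocultures 16 to 24 members were called in the settings that kept all libraries of the groups, and 9 to 26 with 1 library left out. Of all genes, 5.49% to 12.5% were called in the former and 4.83% to 22.3% in the latter. Between silk and LN/PC co-cultures the counts were 16 to 23, of which DTX3L was called higher in the settings named above, and 13 to 22 with 1 library left out. In the same order, 27.5% to 43.6% and 24.1% to 39.8% of all genes were called. Between silk co-cultures and silk monocultures, 1 member was called with a pseudocount of 10, 3 with the 2 groups alone, 1 against the mixtures and 0 to 1 with 1 library left out. In the same order, 4.27%, 8.54%, 5.05% and 1.44% to 5.69% of all genes were called. Between LN/PC co-cultures and monocultures, 2 were called with the 2 groups alone, 1 against mixtures at 13.0%, 0 against mixtures at 20.9% and 1 to 9 with 1 library left out. In the same order, 7.79%, 4.34%, 4.9% and 5.31% to 13.9% of all genes were called. The interaction was called for 1 and 2 members with these mixtures and for 1 to 6 with 1 library left out. In the same order, it was called for 3.54%, 4.32% and 3.28% to 9.44% of all genes. Fibroblasts gave 23 to 29 calls against silk and 24 to 26 against LN/PC monocultures with 1 library left out. In the same order, 46.3% to 58.1% and 45.6% to 55% of all genes were called. Summed markers put the fibroblast share of silk co-cultures at 0.118% and that of LN/PC co-cultures at 20.9%; with 1 library left out the median share was 0.0119% to 0.0686% on silk and 11.9% to 14.5% on LN/PC. The cause of these shifts was not tested.

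Whether libraries with the same replicate number belong together is not stated, and the main fits did not pair them. Deviations of same-numbered libraries correlated at -0.23 to 0.18, which cannot show how the cultures were set up. With the replicate number as a block, 20 members were called between silk and LN/PC monocultures, 19 between the co-cultures, 0 between silk co-cultures and monocultures, 5 between LN/PC co-cultures and monocultures, 4 for the interaction, and 27 and 25 for fibroblasts against silk and LN/PC monocultures. In the same order, 9.12%, 33.3%, 3.07%, 10.8%, 6.53%, 54.2% and 53.5% of all genes were called. Genes of 1 to 3 reads, such as MX2 on silk and OASL or HERC5 in fibroblasts, are limited by depth.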

Other observations

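Of 26 other interferon-induced genes in the table, 5 were lower and 1 was higher in silk than in LN/PC monocultures (23.1%, where 11.7% of all genes were called), and 8 were lower and 3 higher in silk than in LN/PC co-cultures (42.3%, near the 36.1% of all genes). IFITM1, which blocks virus entry at the cell membrane, was lower on silk in both kinds of culture (log2 difference -1.49 ± 0.20 in monocultures and -1.41 ± 0.20 in co-cultures). SHISA5 and PLSCR1 were lower in both as well, with -1.32 ± 0.16 and -0.76 ± 0.17 in monocultures and -1.25 ± 0.16 and -0.75 ± 0.17 in co-cultures. The RNA editing enzyme ADAR was lower on silk in monocultures (-0.85 ± 0.26, adjusted p = 0.0458) and differed by -0.54 ± 0.26 in co-cultures (adjusted p = 0.118). TRIM38 went the other way and was higher on silk in both (0.82 ± 0.22 and 0.68 ± 0.22). SAMHD1, which depletes the nucleotides that viruses need, was lower in silk than in LN/PC co-cultures (-1.53 ± 0.32, adjusted p = 0.0017), while its difference between monocultures was -0.73 ± 0.32 (adjusted p = 0.14). It was higher in fibroblast monocultures than in silk monocultures (3.18 ± 0.37), and the fibroblast share of the co-cultures differed, so the part of fibroblast RNA in its difference was not tested. TNFSF10, the death ligand TRAIL, was the 1 gene of this group that was lower with fibroblasts on both membranes (-0.90 ± 0.15, adjusted p = 0.00208 on silk and -0.67 ± 0.15, adjusted p = 0.00671 on LN/PC). Fibroblast monocultures had 12.7, 11.3 and 9.94 normalized counts of TNFSF10, silk co-cultures 522, 459.5 and 589, silk monocultures 1097, 858 and 985, LN/PC co-cultures 576, 679.7 and 697 and LN/PC monocultures 1029, 963 and 1104.

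Among 7 tested genes that respond mostly to interferon-gamma, 2 were lower in silk than in LN/PC monocultures (28.6%, where 11.7% of all genes were called), and 5 were lower and 1 higher in silk than in LN/PC co-cultures (85.7%, where 36.1% of all genes were). WARS1, the tryptophanyl-tRNA synthetase, was lower on silk in monocultures (-1.41 ± 0.27) and in co-cultures (-1.13 ± 0.27), as was the guanylate-binding protein gene GBP4 (-1.87 ± 0.48 and -1.84 ± 0.48). ICAM1, an adhesion molecule for leukocytes, had 180.2, 177 and 204 normalized counts in silk co-cultures and 133, 172 and 88.2 in silk monocultures, against 88.9, 85.6 and 67.1 in LN/PC co-cultures and 451, 118 and 603 in LN/PC monocultures. It was lower in LN/PC co-cultures than in LN/PC monocultures (-1.98 ± 0.43, adjusted p = 0.00502), and the interaction was 2.54 ± 0.60 (adjusted p = 0.0149). GBP5 and the DNA sensor gene CGAS did not pass the filter among the epithelial libraries but were higher in fibroblast monocultures than in silk monocultures (4.95 ± 0.62 and 4.14 ± 0.48). Both passed the filter of that fit through the fibroblast libraries alone, where they are high.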
